A study of Homo sapiens with 16 samples.

Results

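The response of cytosolic mRNA to PP242 was followed in 8 of the 16 arrays of the series: the 4 arrays of cytosolic RNA from PP242-treated cells and the 4 of cytosolic RNA from vehicle-treated cells, taken as pairs by their replicate number. Changes were computed for 19777 genes, each represented by 1 probe set, the one whose mean over the 16 arrays was highest. MIA PaCa-2 is an established pancreatic carcinoma line. Treatment was for 12 hours, with PP242 at 2.5 µM or with its solvent DMSO, and PP242 blocks the catalytic site of mTOR. The other 8 arrays hold polysome RNA, the pooled sucrose-gradient fractions whose mRNAs carried more than 3 ribosomes, from the same 2 treatments, 4 arrays each, and serve here as a second readout. The model is thus a single cell line at a single dose and time. Values are log2 array signals. A change is the PP242 value minus the vehicle value on that scale, so 1 is a doubling of signal, and ± is the standard error of the paired limma fit unless SD is named. Adjusted p-values are limma's with Benjamini-Hochberg adjustment over the 19777 genes, and a gene passed the test at an adjusted p under 0.05. The labels do not say that the replicates were separate cultures, so p-values measure the spread between these arrays, which may be technical.

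The kinase mTOR works in a pair of complexes. Complex 1 drives protein, lipid and nucleotide synthesis and entry into the cell cycle when nutrients and growth factors are present, and it keeps the transcription factors that switch on lysosomal genes out of the nucleus. Complex 2 activates AKT. Blocking the kinase also lifts the brakes that complex 1 places on receptor tyrosine kinases and their adaptors. In dividing cells, genes of DNA replication carry promoter sites for the E2F factors, and genes of mitosis carry a short element called CHR that is bound by the MuvB complexes.

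Of 9 measured epithelial and pancreatic carcinoma markers 7 reached a level of 6, and 5 of the 9 rose after PP242. The keratins KRT8 and KRT18 had vehicle means of 11.44 and 13.05 and the intermediate filament VIM 14.02, while the epithelial adhesion genes EPCAM (2.61) and CDH1 (3.48) lay near the bottom of the scale. Of 5 measured exocrine pancreas markers, 5 islet markers and 6 leukocyte markers, 0 reached a level of 6 in either group, and 0 passed the test in either direction (members' means 3.86, 3.88 and 4.27 in vehicle against 3.88, 3.99 and 4.35 after PP242). Of 8 fibroblast markers 4 reached a level of 6, with COL1A2 at a vehicle mean of 11.62. COL1A2 and COL3A1 fell and ACTA2 rose. Among 6 endothelium markers 1 reached a level of 6, CLDN5 (6.09 in vehicle), and 0 passed the test. In a bulk culture, fewer cells of a kind and less RNA per cell cannot be told apart.

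The PP242 arrays were more variable than the vehicle arrays. The median SD of a gene was 0.245 among the 4 PP242 arrays against 0.122 among the 4 vehicle arrays, and 82.9% of genes had the larger SD after PP242. In polysome RNA the same medians were 0.147 and 0.159. PP242 arrays 2 and 4 stood apart: limma's array weights were 0.421 and 0.301 for them, 0.997 and 0.579 for PP242 arrays 1 and 3, and 1.20 to 2.71 for the vehicle arrays. The median absolute deviation from the group mean did not single them out, at 0.147, 0.16, 0.17 and 0.18 for PP242 arrays 1 to 4. In PP242 array 4, 851 genes lay more than 1 log2 unit below the vehicle mean, in array 2 605, and in arrays 1 and 3 364 and 361. Results are therefore also given for numbers 1 and 3 alone, a choice made after seeing the data. The pairing by replicate number has limited backing in the values. Deviations from the group mean correlated over genes at 0.502, 0.33, 0.347 and 0.293 for numbers 1 to 4. Between arrays of different numbers the correlation ran from -0.437 to 0.289, so its highest value came close to that of number 4. Each vehicle array matched the PP242 array of its own number best.

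PP242 changed the cytosolic level of 3707 genes, 18.7% of those tested. Of these, 1940 rose (9.81% of all genes) and 1767 fell (8.93%), and by at least 2-fold 181 rose and 401 fell. All 4 pairs moved the same way for 3602 of the 3707, which the paired test on these same pairs favours. The 4 vehicle and 4 PP242 values did not overlap for 3496 genes (17.7% of all genes), of which 2603 also passed the test. The median change over all genes was 0.04. The normalised cytosolic arrays had medians of 5.0 to 5.05, so a change is relative to the other mRNAs of an array, not an absolute amount. Calls were more frequent at high signal, from 2.8% of the 4944 genes with the lowest mean level to 35% of the 4945 with the highest. Without the pairing 2069 genes passed. Numbers 1 and 2 also differ in baseline from 3 and 4, as TXNIP below shows, and 1664 genes passed within numbers 1 and 2 alone, 371 within 3 and 4 alone, and 968 within 1 and 3 alone. Leaving out replicate 2 left 1720 genes.

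**Figure D1:**
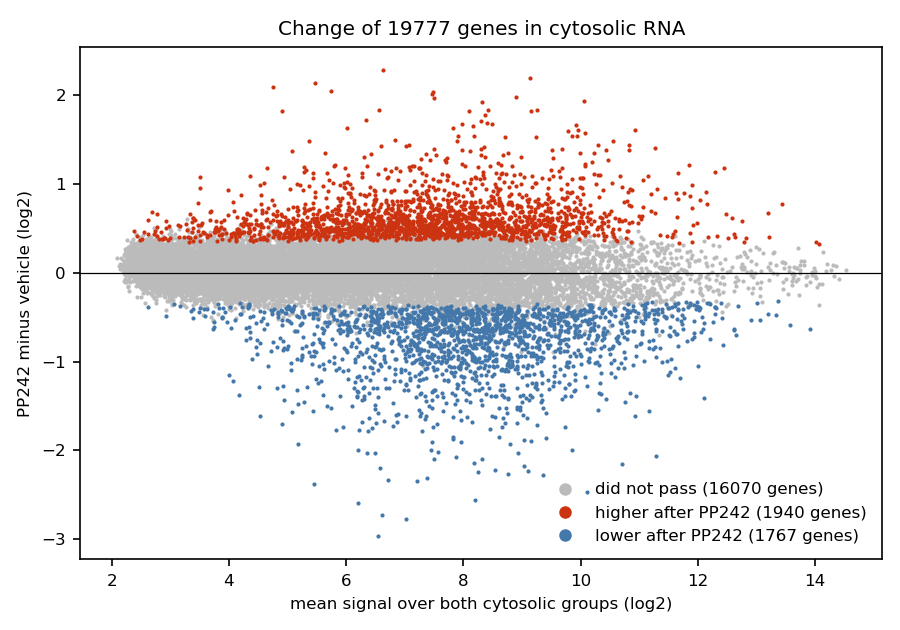
Change after PP242 (vertical axis, log2) against the mean signal over the 8 cytosolic arrays (horizontal axis, log2), 1 point per gene, with genes that rose in red, genes that fell in blue and genes that did not pass in grey. The 1940 rises and 1767 falls lie mostly above a level of 6, and the falls reach further from 0, down to -2.96.

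The gene that fell most was ID2, a repressor of basic helix-loop-helix transcription factors. Its signal was 7.96, 7.65, 8.38 and 8.09 in vehicle arrays 1 to 4 and 5.02, 5.31, 5.3 and 4.61 in PP242 arrays 1 to 4. The groups are far apart, with every PP242 value more than 2 units below the lowest vehicle value, and the change was -2.96 ± 0.17 (n = 4 pairs, limma adjusted p = 3.04e-06), a 7.78-fold fall. Its relatives moved too. ID3 went from 9.75, 9.87, 10.17 and 10.15 to 8.14, 8.58, 7.44 and 8.23, a change of -1.89 ± 0.19. ID1 went from 10.95, 10.93, 11.02 and 11.03 to 9.92, 10.2, 8.87 and 9.54, a change of -1.35 ± 0.19. In both genes PP242 array 3 was the lowest, and the groups did not overlap. Around them, in the list of ID genes and BMP-SMAD feedback, 7 of 27 measured genes fell and 5 rose, with a median of 0.09 against 0.04 for all genes. The receptor ACVR1B rose by 0.80 ± 0.12.

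Next came genes of DNA replication. MCM10, which helps to start unwinding at origins, had 8.15, 7.9, 8.85 and 8.74 in vehicle and 5.4, 5.07, 5.78 and 6.29 after PP242, a 6.84-fold fall (SE 0.13, adjusted p = 2.54e-06). CDC6, which loads the helicase onto origins, went from 8.04, 8.18, 8.74 and 8.55 to 5.7, 6.05, 5.97 and 6.43. PCNA, the sliding clamp of the polymerases, went from 11.44, 11.31, 11.32 and 11.31 to 9.28, 8.61, 9.19 and 8.41. In the 3 genes every PP242 value lies more than 1 unit below every vehicle value, and PP242 arrays 2 and 4 are the lowest for PCNA but not for MCM10 or CDC6. The falls of CDC6 and PCNA were 5.06-fold and 5.55-fold. GMNN, the geminin gene, whose product blocks relicensing, fell by 2.02 ± 0.12, and GINS1, a part of the active helicase, fell by 1.93 ± 0.12, with PP242 values of 7.61 to 7.91 against 9.67 to 9.86.

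Of 28 measured genes of origin licensing and the replicative helicase, 24 fell and 4 did not pass (ORC3, ORC4, ORC5 and RECQL4, with changes of 0.01, -0.23, 0.06 and 0.04). The list's median was -1.39, and its medians in pairs 1 to 4 were -1.41, -1.27, -1.39 and -1.12. Of 28 genes of the replicative polymerases, clamp and clamp loader, 23 fell, 1 rose and 4 did not pass, with a median of -1.02. The gene that rose was POLD4, a small subunit of polymerase delta (0.99, adjusted p = 0.000945). POLE2, a subunit of the leading-strand polymerase, went from 8.35 to 8.61 in vehicle down to 6.18 to 6.71, and the clamp loader RFC4 from 9.72 to 9.85 down to 7.89 to 8.15. In numbers 1 and 3 alone 22 licensing and 20 polymerase genes fell, and 0 of either list rose.

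Deoxynucleotide supply followed. Of 12 measured genes 9 fell and 3 did not pass, median -0.68. TYMS, the thymidylate synthase, had 11.77, 11.67, 11.74 and 11.76 in vehicle and 10.28, 9.83, 10.17 and 10.21 after PP242, a change of -1.61 ± 0.11. The ribonucleotide reductase subunits RRM2 and RRM1 changed by -1.55 ± 0.13 and -1.21 ± 0.12, and thymidine kinase TK1 by -1.24 ± 0.15. TK1 shows the range within the group, since PP242 array 4 (8.24) lay well above array 1 (7.28).

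E2F factors and the G1 machinery changed in part. Of 15 E2F, DP and related factors 8 fell and 7 did not pass, median -0.57. E2F8, an atypical repressor of the family, went from 7.5, 7.23, 7.62 and 7.61 to 4.68, 5.18, 5.0 and 4.75, a 6.01-fold fall. E2F7, its close relative, changed by -1.70 ± 0.19 and the activator E2F2 by -1.53 ± 0.14. ZNF367, a zinc finger gene outside these lists, belonged to the 10 largest falls, from 7.58, 7.57, 8.42 and 8.35 to 4.72, 4.58, 6.11 and 5.59. Among 12 G1 cyclins, kinases and activators 7 fell and 5 did not pass. CCNE2, the E-type cyclin of the G1 to S transition, went from 6.6, 6.31, 7.05 and 6.61 to 3.86, 4.3, 4.38 and 4.53, a 5.19-fold fall that ends low on the scale. CDK2 fell by 1.68 ± 0.12 and SKP2, which targets CDK inhibitors for degradation, by 1.3 ± 0.12. Of 10 CDK inhibitors and RB family genes 2 rose, 4 fell and 4 did not pass, median -0.28, and in numbers 1 and 3 alone 0 rose and 2 fell. RBL1, a relative of the retinoblastoma protein, fell by 1.77 ± 0.18 and CDKN3, a phosphatase of CDK2, by 1.05 ± 0.13. CDKN1C rose from 7.15 to 7.54 up to 7.76 to 8.47 (change 0.82 ± 0.14) and CDKN1A rose from 6.35 to 6.72 up to 7.06 to 7.78 (0.77 ± 0.14).

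**Figure D2:**
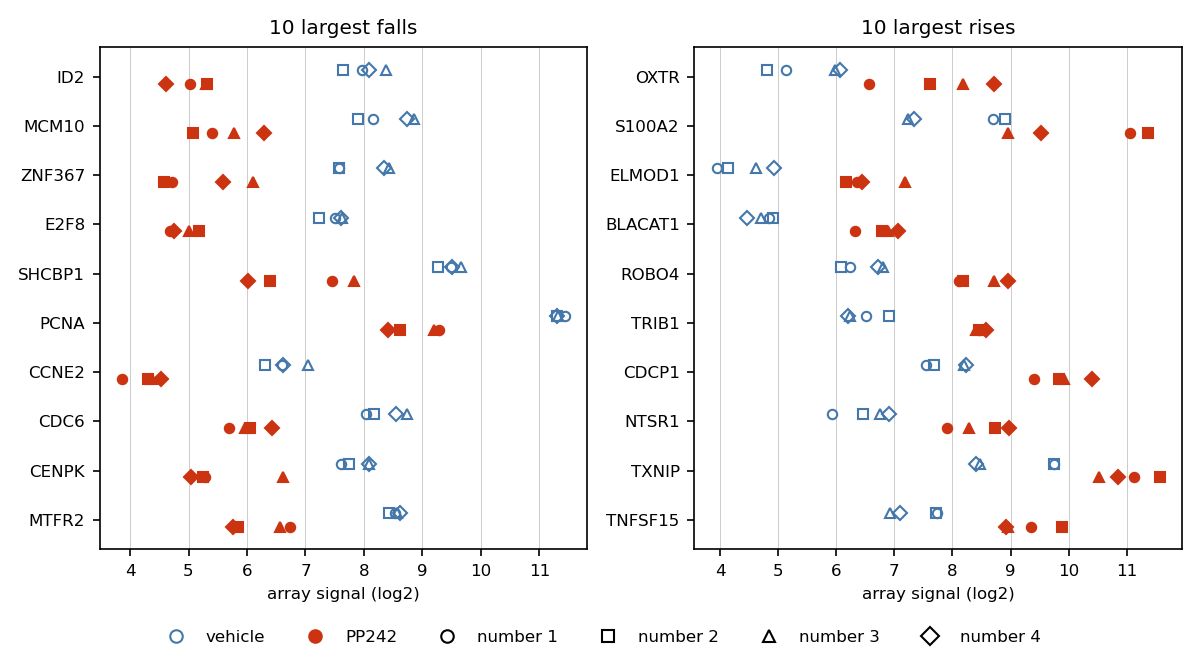
Signal (horizontal axis, log2) of the 10 genes with the largest falls (left) and the 10 with the largest rises (right), among called genes with a mean of at least 6 in the higher group, 4 pairs alike and groups apart, in each of the 8 cytosolic arrays, with vehicle as open blue symbols, PP242 as filled red symbols and the symbol's shape giving the replicate number. Vehicle and PP242 values are apart for each of the 20 genes, and SHCBP1, PCNA and MTFR2 show PP242 arrays 2 and 4 below arrays 1 and 3.

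The fall extended to mitosis. CDK1, the kinase that triggers it, had 10.03, 10.17, 10.4 and 10.3 in vehicle and 7.96, 7.39, 8.35 and 8.26 after PP242, a 4.71-fold fall (adjusted p = 4.52e-06). MASTL, which shields CDK1's substrates from dephosphorylation, went from 7.61 to 7.77 down to 5.07 to 5.99. Cyclin A2, CCNA2, went from 9.19 to 9.47 down to 7.11 to 8.02. Of 26 mitotic kinases, cyclins and checkpoint genes 23 fell and 3 did not pass, median -1.17. Of 32 genes of kinetochore and centromere 31 fell, median -1.05, and the exception was PMF1 (-0.30, adjusted p = 0.11). ZWINT, a kinetochore protein that recruits dynein's adaptor, was one of the steadiest: 10.3, 10.29, 10.44 and 10.3 in vehicle and 8.5, 8.47, 8.48 and 8.43 after PP242. CENPK, a subunit of the inner kinetochore, went from 7.61, 7.74, 8.09 and 8.08 to 5.29, 5.25, 6.61 and 5.04, with PP242 array 3 well above the other PP242 arrays.

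Of 32 kinesins and genes of spindle and cytokinesis 30 fell, median -1.14, and KIF22 (-0.31, adjusted p = 0.219) and CKAP5 (-0.19, adjusted p = 0.336) did not pass. KIF11, the motor that separates spindle poles, had 8.79, 8.9, 9.04 and 8.94 in vehicle and 7.3, 6.74, 7.6 and 6.43 after PP242. SHCBP1, a midbody protein, went from 9.49, 9.27, 9.66 and 9.5 to 7.46, 6.4, 7.83 and 6.01. In both genes PP242 arrays 2 and 4 lie below arrays 1 and 3, and the latter are themselves more than 1 unit below every vehicle array. In numbers 1 and 3 alone 21 of the mitotic kinase genes, 28 of the kinetochore genes and 27 of the kinesin genes fell. Of 24 cohesin, condensin and chromatid separation genes 18 fell, with SMC2 and NCAPH, subunits of condensin, at -1.60 ± 0.12 and -1.62 ± 0.12. MTFR2, a mitochondrial fission regulator outside the lists, fell 4.94-fold.

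Promoter stretches of genes that fell are shown because genes that fell by at least 2-fold hold the E2F and CHR motifs more often than tested genes in general. The genes were picked after their values were seen. Windows from 250 bases before to 50 after the start, from RefSeq (GRCh38.p14), were matched by gene ID for 15382 of the 19777 genes, with the first listed start of each gene. The E2F motif was searched as TTTGGCGC or TTTCGCGC, which can overlap, and CHR as TTTGAA, both strands. Each stretch below reads 5′ to 3′ on the gene's strand and ends before the start, with 1 match in capitals, as its reverse complement where it lies on the other strand. In MCM6 a second match, on the gene's own strand, overlaps the one in capitals. ZNF367, MCM6, POLA2, HELLS and E2F2 show the E2F motif, at chr9:96418371-96418435, chr2:135876492-135876559, chr11:65261879-65261946, chr10:94545682-94545749 and chr1:23531238-23531305, with POLA2 and HELLS on the plus and the others on the minus strand. MCM6 encodes a helicase subunit, POLA2 a subunit of the primase complex and HELLS a chromatin remodeler.
ZNF367: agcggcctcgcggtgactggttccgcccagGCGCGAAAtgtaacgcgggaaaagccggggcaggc
MCM6: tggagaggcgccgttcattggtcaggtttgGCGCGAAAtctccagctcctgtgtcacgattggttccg
POLA2: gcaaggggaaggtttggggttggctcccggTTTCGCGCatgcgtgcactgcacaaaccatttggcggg
HELLS: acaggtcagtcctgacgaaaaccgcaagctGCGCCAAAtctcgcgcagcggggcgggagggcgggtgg
E2F2: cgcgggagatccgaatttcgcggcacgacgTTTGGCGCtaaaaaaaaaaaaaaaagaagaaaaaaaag

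A match to the CHR letters in 4 mitosis genes is shown in the same way. Whether these matches are working CHR elements was not tested. CDK1 lies at chr10:60778140-60778205, KIF11 at chr10:92593072-92593129 and KIF23 at chr15:69414264-69414329, on the plus strand, and ZWINT at chr10:56361260-56361320 on the minus strand.
CDK1: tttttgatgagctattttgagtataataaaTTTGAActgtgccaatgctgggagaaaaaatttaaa
KIF11: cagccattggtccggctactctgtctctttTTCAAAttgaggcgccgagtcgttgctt
KIF23: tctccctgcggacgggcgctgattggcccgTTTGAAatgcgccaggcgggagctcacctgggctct
ZWINT: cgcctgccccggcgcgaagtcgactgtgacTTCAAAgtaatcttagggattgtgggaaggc

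The E2F motif was in 1.5% of the promoters of tested genes and in 1.2% of all 27305 promoters. Among genes that fell it was in 3.7%, among those that fell by at least 2-fold in 7.8% (27 of 346), and among genes that rose in 0.9%. In the licensing list it was in 7 of 23 promoters (30.4%), or 8.7% counting only the bases before the start. The CHR motif was in 11.9% of promoters of tested genes and 15.4% of all promoters. It was in 16.5% of promoters of genes that fell, 26.3% of those that fell by at least 2-fold, 6.8% of those that rose, and 23 of 30 promoters of the kinesin list (76.7%, or 50.0% before the start). Counting only the bases before the start, the E2F shares were 1.3% of tested genes and 2.4% of those that fell, and the CHR shares 10.6% and 13.3%, beside 13.6% of all promoters and 19.1% of genes that fell by at least 2-fold. The CHR share of all genes that fell is thus no higher than that of promoters at large in those bases. These shares describe letters in a window, not binding.

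**Figure D3:**
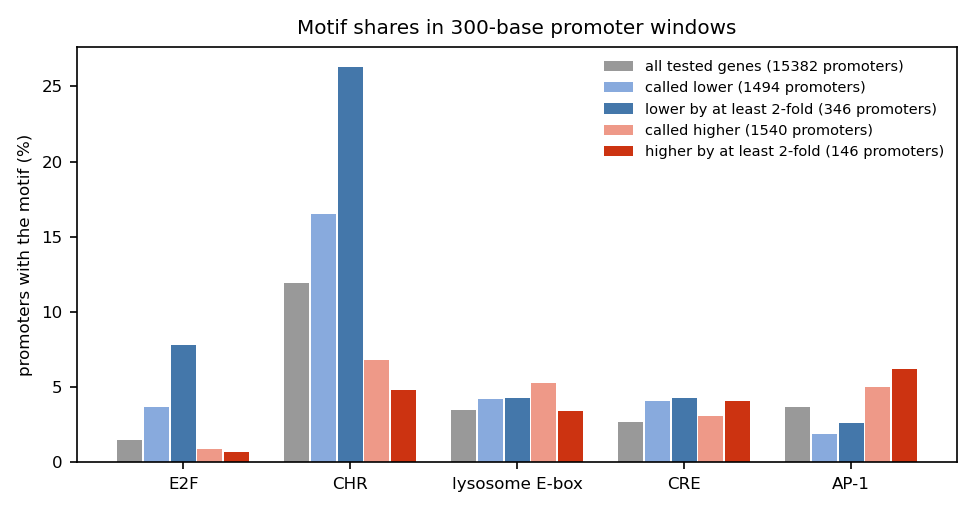
Percentage of promoter windows (vertical axis) that hold each of 5 motifs (horizontal axis), for tested genes, genes that fell, genes that fell by at least 2-fold, genes that rose and genes that rose by at least 2-fold. The CHR bar goes from 11.9% of tested genes to 26.3% of genes that fell by at least 2-fold, and the E2F bar from 1.5% to 7.8%.

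DNA repair genes tied to replication fell with it. Homologous recombination and the Fanconi pathway had 29 measured genes, with 21 falls, 1 rise, 7 that did not pass and a median of -1.06. RAD51AP1, a partner of the recombinase, went from 9.66, 9.43, 9.82 and 9.7 to 7.62, 7.2, 7.68 and 7.23. BRCA1 went from 8.65 to 8.92 down to 6.65 to 7.29, and its helicase partner BRIP1 from 7.3, 7.36, 7.68 and 7.67 to 4.83, 5.24, 6.31 and 5.53. The groups stayed apart in each. Of 14 replication stress checkpoint genes 9 fell and 1 rose. CLSPN, the claspin gene, changed by -1.73 ± 0.14 and TIMELESS by -1.10 ± 0.12. The checkpoint kinase CHEK1 changed by -1.40 ± 0.18, but of its 3 other probe sets 2 fell and 1 rose. Mismatch and base excision repair moved less, with 6 of 18 falling, 12 not passing and a median of -0.09, although the glycosylase NEIL3 went from 7.96 to 8.35 down to 6.54 to 6.76.

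Chromatin assembly and nuclear envelope genes fell as well. Of 22 chromatin assembly and DNA methylation genes 19 fell, median -0.89. UHRF1, which recruits the maintenance methyltransferase to new DNA, went from 10.61, 10.5, 11.22 and 11.07 to 8.36, 8.47, 9.43 and 9.17, and HELLS from 8.31 to 8.84 down to 6.22 to 7.09. For UHRF1, numbers 3 and 4 were higher than 1 and 2 in both groups, and every pair fell by 1.79 or more. Of 41 lamina, nuclear pore and importin genes 24 fell, 0 rose and 17 did not pass, median -0.43. LMNB1, lamin B1, went from 8.89 to 9.71 down to 7.04 to 8.23. In numbers 1 and 3 alone 12 of the 41 fell. Histones and variants split: of 29 measured, 7 fell and 4 rose. With no replicate block 5 of them fell and 1 rose, and in numbers 1 and 3 alone 3 fell and 2 rose. The replacement variant H2AZ1 went from 12.75 to 12.86 down to 11.16 to 11.69, while H2AC6, a core histone gene, rose from 5.81 to 6.48 up to 6.68 to 7.66.

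The largest rise was OXTR, the oxytocin receptor. Its signal was 5.14, 4.8, 5.97 and 6.06 in vehicle and 6.56, 7.61, 8.18 and 8.72 after PP242, a 4.84-fold rise with all 4 pairs up (adjusted p = 2.2e-05). S100A2, a calcium-binding protein of basal epithelia, went from 8.69, 8.9, 7.23 and 7.34 to 11.06, 11.37, 8.96 and 9.52. TXNIP, an arrestin-like brake on glucose uptake, went from 9.75, 9.75, 8.47 and 8.41 to 11.13, 11.57, 10.53 and 10.85. In S100A2 and TXNIP numbers 1 and 2 lie above 3 and 4 in both groups. The paired changes were 2.19 ± 0.14 and 1.93 ± 0.16, and neither gene's groups overlap, though those of S100A2 nearly meet. TNFSF15, a cytokine of the TNF family, shared that order of the numbers and rose by 1.92 ± 0.13.

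TRIB1, a pseudokinase scaffold that responds to MAP kinase signalling, rose from 6.52, 6.91, 6.23 and 6.2 to a tight 8.46, 8.46, 8.41 and 8.57. CDCP1, a transmembrane substrate of SRC kinases, went from 7.55, 7.68, 8.2 and 8.23 to 9.41, 9.83, 9.92 and 10.41. NTSR1, the neurotensin receptor, went from 5.92 to 6.9 up to 7.91 to 8.97, and ROBO4, a guidance receptor, from 6.08 to 6.8 up to 8.12 to 8.95. The GTPase-activating protein ELMOD1 (3.94 to 4.93 in vehicle) and the long non-coding RNA BLACAT1 (4.46 to 4.91) rose from the low end of the scale, by 4.38-fold and 4.11-fold. The other probe set of ELMOD1 changed by -0.12 and did not pass. These 10 rises and the 10 largest falls passed in each of 17 alternative fits, or in each of 16 for BLACAT1, CCNE2 and ELMOD1. With the probe sets of a gene averaged the change was smaller for several: 0.715 for TRIB1, 1.09 for CDCP1, 1.23 for ROBO4, 1.01 for ELMOD1 and -1.22 for MTFR2.

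Among targets and brakes of ERK signalling 10 genes rose. Of the 20 measured ERK feedback genes 0 fell and 10 did not pass, median 0.48, with pair medians of 0.56, 0.5, 0.43 and 0.42. SPRY4, a Sprouty inhibitor, went from 8.91, 8.95, 9.03 and 9.06 to 10.13, 10.58, 10.27 and 10.52, a change of 1.39 ± 0.12. DUSP6, the ERK phosphatase, went from 5.26, 5.49, 4.78 and 4.94 to 6.28, 6.65, 5.78 and 6.24, with the same order of the numbers in both groups. The cytokine gene LIF rose by 1.20 ± 0.14. Of 18 AP-1 and immediate-early factors 9 rose and 0 fell. EGR1 went from 9.71 to 10.39 up to 11.31 to 11.64 and EGR3 from 5.38 to 5.65 up to 6.46 to 7.77, EGR3 being highest in PP242 arrays 1 and 3. MYC, a growth-promoting factor, went from 10.12 to 10.28 up to 10.8 to 11.34. In numbers 1 and 3 alone 5 ERK feedback genes and 6 immediate-early factors rose.

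Receptors upstream of that pathway rose in part. Of 34 receptor tyrosine kinases and adaptors 15 rose, 0 fell and 19 did not pass, median 0.34. The adaptor SHC1 went from 11.88, 11.91, 11.53 and 11.58 to 12.88, 13, 12.65 and 12.89, a change of 1.13 ± 0.10. The receptor AXL went from 9.17 to 9.76 up to 10.38 to 11, ERBB2 from 8.96 to 9.2 up to 9.87 to 10.52, and the insulin receptor substrate IRS2 from 7.71 to 7.9 up to 8.73 to 9.06. Groups did not overlap in these 4 genes. Of 30 growth factors and cytokines 4 rose and 1 fell, median 0.14, a share of rises near the 9.81% of all genes. HBEGF, a ligand of the EGF receptor, rose by 1.77 ± 0.16, although only 1 of its 3 other probe sets moved the same way. VEGFC rose by 1.02 ± 0.12 and the chemokine CXCL8 by 0.99 ± 0.16.

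Genes of cell surface, matrix and epithelium included some of the steadiest rises. PLAUR, the urokinase receptor, had 8.27, 8.42, 8.08 and 8.19 in vehicle and 9.95, 10.21, 9.88 and 10.2 after PP242, and its ligand PLAU 10.05, 10.17, 10.02 and 10.16 against 11.41, 11.83, 11.33 and 11.56. Within each group the 4 arrays lie close together, and the groups are more than 1 unit apart. Of 22 matrix proteases and genes of the urokinase system 7 rose and 0 fell. The stromelysin MMP10, with a mean below 6 in both groups, rose 4.25-fold, from 3.36 to 4.04 up to 5.53 to 6.06. Of 28 integrins, laminins and matrix genes 8 rose and 1 fell, with the laminin receptor subunits ITGA3 (1.71 ± 0.12) and ITGB4 (1.49 ± 0.14). Of 38 keratins and junction genes 11 rose and 1 fell. KRT19 went from 9.18 to 9.46 up to 10.5 to 11.28, and KRT15 from 8.84, 8.85, 7.86 and 7.8 to 10.01, 10.16, 10.42 and 10.06, so that its vehicle arrays differ by number and its PP242 arrays do not.

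Many lysosomal genes rose. Of 37 measured lysosomal enzymes and membrane proteins 24 rose, 1 fell and 12 did not pass, median 0.48, with pair medians of 0.37, 0.63, 0.44 and 0.56. The protease CTSL had 9.87, 9.96, 9.67 and 9.76 in vehicle and 11.06, 11.7, 10.92 and 11.5 after PP242, a change of 1.48 ± 0.13. PSAP, the precursor of the saposins, went from 11.35, 11.5, 11.14 and 11.3 to 12.11, 12.49, 12.03 and 12.22. HEXA, a hexosaminidase subunit, rose by 1.17 ± 0.13, although its other probe sets changed by 0.00 to 0.24 and did not pass. In CTSL and HEXA PP242 arrays 2 and 4 were the highest, and in numbers 1 and 3 alone 8 lysosomal genes rose, with no replicate block 15. The gene that fell was GLA, alpha-galactosidase (-0.56, adjusted p = 0.0101). The E-box of lysosomal genes, GTCACGTG on either strand, was in 6 of 27 promoters of the list, 22.2%, against 3.5% of tested genes, 5.3% of genes that rose, 3.4% of those that rose by at least 2-fold and 4.2% of genes that fell. It is shown in capitals in 4 members that rose: CTSA, a carboxypeptidase, at chr20:45891280-45891334 (plus), the protease CTSD at chr11:1763937-1764004 (minus), the sulfatase GALNS at chr16:88856948-88857011 (minus) and the membrane protein LAMP1 at chr13:113297181-113297238 (plus). Their changes were 0.94, 0.72, 0.82 and 0.41.
CTSA: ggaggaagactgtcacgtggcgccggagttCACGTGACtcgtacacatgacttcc
CTSD: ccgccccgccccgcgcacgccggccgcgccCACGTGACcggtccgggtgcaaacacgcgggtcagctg
GALNS: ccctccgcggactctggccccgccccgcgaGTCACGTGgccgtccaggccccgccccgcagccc
LAMP1: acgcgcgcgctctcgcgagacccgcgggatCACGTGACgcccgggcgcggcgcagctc

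The vacuolar ATPase that acidifies lysosomes did not share this: of 16 measured subunits 1 rose, 1 fell and 14 did not pass, median 0.05. The lysosomal E-box was in 3 of the 11 promoters of this list, 27.3%, so the motif share was as high in a list with 1 rise. Its catalytic subunit ATP6V1A went from 9.85 to 10.2 down to 8.85 to 9.58. Of 44 autophagy genes 12 rose and 3 fell, median 0.20. The cargo receptor SQSTM1 went from 8.87, 8.92, 8.83 and 8.89 to 10.15, 10.57, 9.79 and 10.16, and the receptor OPTN from 7.6 to 8.36 up to 8.7 to 9.41. In numbers 1 and 3 alone 2 autophagy genes rose. Searched in the same windows, the CRE motif (TGACGTCA) was in 4.1% of promoters of genes that fell, 3.1% of those that rose and 2.7% of tested genes. The AP-1 motif (TGAGTCA) was in 1.9%, 5.0% and 3.7%.

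The mTOR pathway's own 48 measured genes split, with 8 rising, 6 falling, 34 not passing and a median of -0.01. CASTOR1, an arginine sensor that restrains complex 1, went from 6.0, 6.22, 5.43 and 5.87 to 7.18, 7.86, 6.77 and 7.39. DDIT4, a stress-induced inhibitor of complex 1, moved the other way, from 10.84, 11.03, 10.09 and 10.26 to 9.68, 9.86, 8.5 and 8.91. The regulatory subunit PIK3R3 of PI3 kinase fell by 1.33 ± 0.12. For CASTOR1 and DDIT4 the groups did not overlap. Numbers 1 and 2 lay above 3 and 4 in both groups for DDIT4, and among the vehicle arrays for CASTOR1.

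Amino acid and lipid synthesis genes fell in part. Of 25 ATF4 targets and serine synthesis genes 12 fell, 2 rose and 11 did not pass, median -0.17. PSAT1, of serine synthesis, went from 10.21, 10.02, 10.96 and 10.78 to 8.56, 7.95, 8.61 and 7.74, a 4.85-fold fall. MTHFD2, of mitochondrial folate metabolism, fell by 1.37 ± 0.13 and the asparagine synthetase ASNS by 1.41 ± 0.16, while the other probe set of ASNS showed a change of 0.00. Of 23 amino acid transporters 4 fell and 4 rose. SLC7A5 went from 9.31, 9.42, 10.67 and 10.74 to 8.47, 9.16, 9.28 and 9.8, so that every pair fell but the groups overlap. Of 22 cholesterol genes 7 fell and 2 rose, with INSIG1, a sterol sensor, at -1.64 ± 0.17. Of 16 fatty acid synthesis genes 6 fell and 2 rose, with SCD5, a desaturase, at -1.36 ± 0.16. Glucose genes split, 4 rising and 4 falling of 28: the transporter SLC2A3 rose by 0.96 ± 0.12 and lactate dehydrogenase LDHA fell by 0.70 ± 0.09.

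Several large machineries changed by different amounts in different pairs. The median of 39 proteasome genes was -0.32, -0.05, -0.51 and 0.06 in pairs 1 to 4, that of 66 nuclear respiratory chain genes -0.31, -0.1, -0.46 and 0, and that of 76 mitochondrial ribosomal proteins -0.19, 0.05, -0.47 and 0.08. Pairs 1 and 3 are lower than pairs 2 and 4 in each of these lists. In polysome RNA the medians of the same numbers were -0.36, -0.46, -0.52 and -0.3 for the proteasome and -0.27, -0.34, -0.4 and -0.35 for the mitochondrial ribosome, closer together. By the test, 9 of 39 proteasome genes fell and 0 rose, and 19 of 66 respiratory chain genes fell and 1 rose. Of 76 mitochondrial ribosomal genes 15 fell and 1 rose. The mean vehicle levels of these lists were 10.28, 10.95 and 9.51. Of the 4945 genes with the highest mean level, from 7.9 up, 979 fell and 753 rose. The shares of falls among proteasome and mitochondrial ribosomal genes lie near that of these genes, and the respiratory chain share lies above it. Rises were fewer in each list. These differences in share were not tested. PSMA2, a core subunit, was low in every pair, from 11.86, 11.74, 11.57 and 11.54 to 11.03, 10.94, 10.63 and 10.77, and so was CYCS, cytochrome c, from 12.22, 12.08, 12.42 and 12.45 to 11.17, 10.98, 11.27 and 11.01. NDUFA5 of complex I went from 9.26 to 9.6 down to 8.47, 7.6, 8.94 and 6.97, and its other probe set changed by 0.26. Without replicate 2, 7 proteasome, 5 respiratory chain and 5 mitochondrial ribosomal genes fell.

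Of 55 spliceosome genes 23 fell, 0 rose and 32 did not pass, median -0.31. SNRPG, a core Sm protein, went from 11.94 to 12.04 down to 10.72 to 11.25, and the splicing regulator TRA2B from 11.04 to 11.24 down to 9.81 to 10.38. Without replicate 2, 11 of the 55 fell. Of 31 heat shock and chaperonin genes 14 fell and 2 rose. HSPE1, the mitochondrial co-chaperonin, changed by -1.17 ± 0.13 and HSPA14 by -1.38 ± 0.13.

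Few mRNAs of the ribosome itself, whose translation depends on mTOR, passed the test. Of 53 measured cytosolic ribosomal protein genes 2 rose, 0 fell and 51 did not pass, median 0.05 against 0.04 for all genes. Pair medians were 0.02, 0.07, -0.04 and 0.12. Their mean vehicle signal was 13.09, high on the scale. RPL3 went from 12.8, 12.84, 12.41 and 12.45 to 12.95, 13.19, 12.69 and 13.21, with overlapping groups, and its call (0.39 ± 0.11, adjusted p = 0.0345) was lost without replicate 2 (0.127) or 4 (0.171). Of 64 genes of ribosome biogenesis and Pol I 12 fell and 4 rose, and of 44 translation factors 7 fell and 1 rose. The mean vehicle levels of these lists were 8.94 and 10.14. Of the 4945 genes with the highest mean level 979 fell and 753 rose, and neither list's share of falls lies above that. These differences in share were not tested. EIF4E, the cap-binding protein, went from 9.39, 9.25, 9.31 and 9.09 to 8.63, 8.45, 8.18 and 8.11, a change of -0.92 ± 0.12.

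**Figure D4:**
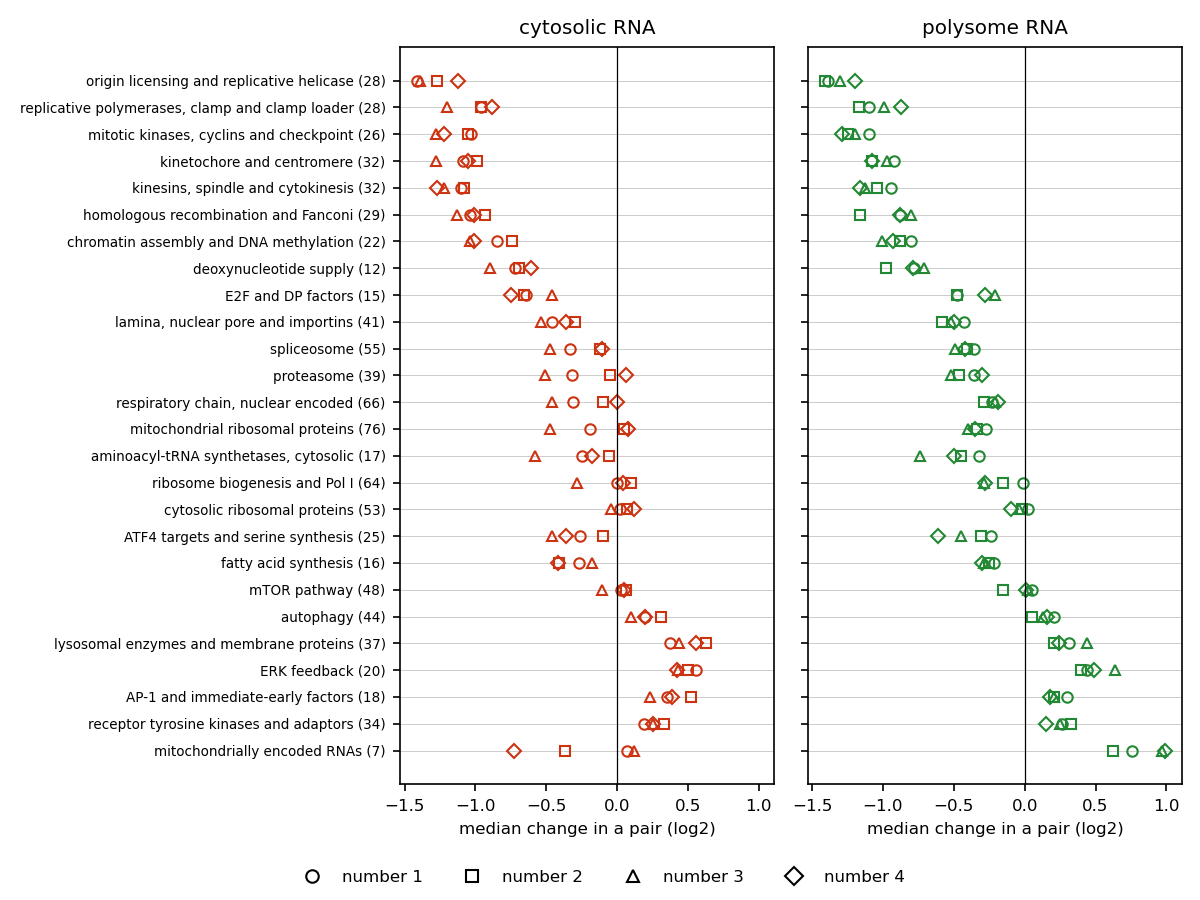
Median change (horizontal axis, log2) of the genes of 26 lists (vertical axis, number of measured genes in parentheses) in each of the 4 pairs, in cytosolic RNA (left, red) and polysome RNA (right, green), with shapes for the replicate number. The 9 lists from origin licensing to E2F and DP factors lie between -1.41 and -0.46 in every cytosolic pair, while the proteasome runs from -0.51 to 0.06 and the mitochondrially encoded RNAs from -0.73 to 0.12.

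The wider spread of the PP242 arrays was looked at gene by gene. Among genes with a level of at least 6 in both groups the largest SDs after PP242 belonged to MALAT1, F2R, EREG, NCKAP1 and KPNA2. F2R, a thrombin receptor, had 10.95, 10.73, 10.5 and 10.61 in vehicle and 11.31, 9.16, 11.3 and 8.46 after PP242. EREG, a ligand of the EGF receptor, had 10.69, 10.46, 10.67 and 10.76 against 10.49, 8.94, 11.52 and 8.42. NCKAP1, of the WAVE actin regulator, had 10.87, 10.69, 10.58 and 10.52 against 10.51, 8.54, 10.66 and 8.26. In each of the 3 genes PP242 arrays 2 and 4 lie more than 1 unit below every vehicle array, and arrays 1 and 3 lie near the vehicle values or above them. The call of NCKAP1 (adjusted p = 0.0273) was lost without replicate 2 (0.18) or 4 (0.105), and F2R and EREG did not pass. KPNA2, an importin, had 12.46, 12.16, 12.42 and 12.25 against 11.3, 9.75, 11.25 and 8.73: it fell in all pairs, and further in arrays 2 and 4. MALAT1, a nuclear long non-coding RNA, was variable in vehicle too (9.47 to 11.36, against 9.06 to 12.43).

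Polysome RNA of F2R, EREG, NCKAP1 and KPNA2 did not show this dip. In the 4 polysome PP242 arrays F2R ranged from 10.98 to 11.38 (SD 0.17), NCKAP1 from 10.29 to 10.49 (SD 0.09), EREG from 10.3 to 11.13 (SD 0.37) and KPNA2 from 11.74 to 12 (SD 0.12). A second probe set for F2R read 8.33, 8.68, 7.99 and 8.18 in cytosolic PP242 arrays 1 to 4, with arrays 2 and 4 not the lowest. A second probe set for EREG read 7.74, 7.72, 9.28 and 9.43 against 6.94, 6.61, 8.09 and 7.94 in vehicle, so numbers 1 and 2 lie below 3 and 4 in both groups, and it passed as higher (1.15). A second probe set for KPNA2 read 12.09, 12.1, 12.15 and 12.15 in vehicle and 11.19, 11.35, 10.76 and 10.87 after PP242, with arrays 3 and 4 the lowest and a change of -1.08. Of the 8 other probe sets of MALAT1 with a cytosolic mean of at least 6, 1 shared the dip (8.94, 6.81, 10.88 and 7.03 after PP242). Over called genes in general, 88.9% of 1988 other probe sets at a level of at least 6 moved in the same direction, 51.5% did so and passed, and 1% passed in the opposite direction.

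**Figure D5:**
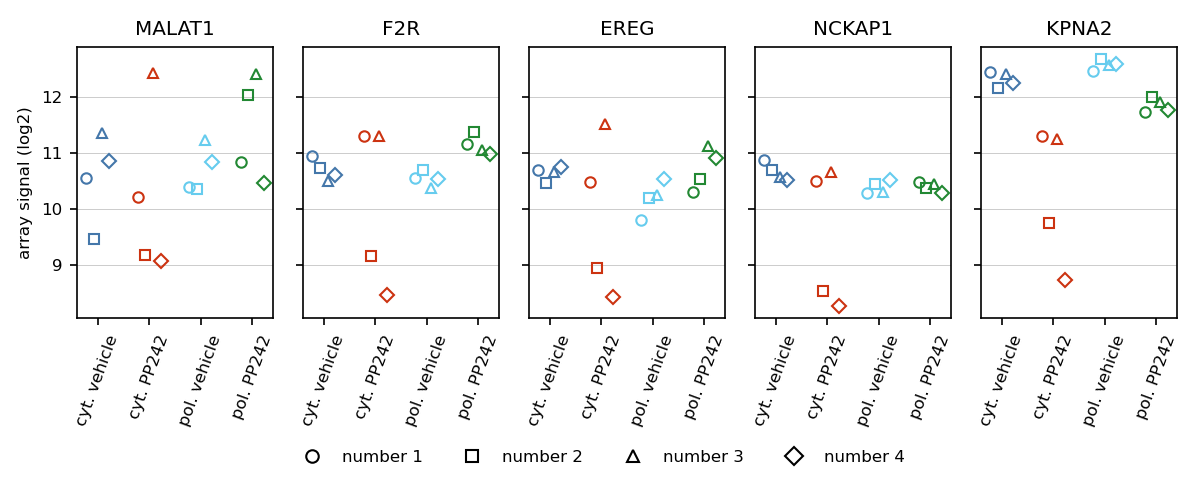
Signal (vertical axis, log2) of the 5 genes with the largest SD among cytosolic PP242 arrays, in the 4 arrays of each group (horizontal axis), with shapes for the replicate number. For F2R, EREG, NCKAP1 and KPNA2 the square and the diamond (arrays 2 and 4) of the cytosolic PP242 group lie below all other points, down to 8.26 for NCKAP1, and the polysome PP242 arrays do not show it.

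The cytosolic effect was then set against the effect on polysome RNA. The pools look normalised apart, so a difference between them is relative to the other mRNAs of each pool, not an absolute amount. In the fit over 16 arrays 0 genes passed the test of the difference, with a lowest adjusted p of 0.237, and 2942 had an unadjusted p under 0.05 (1341 higher and 1601 lower in polysome RNA). When polysome and cytosolic arrays of the same number and treatment were first subtracted, a fit chosen after seeing the data, 722 genes passed, 566 higher and 156 lower in polysome RNA, and 382 of them had passed in the cytosol. That count was 137 without replicate 2 and 128 without replicate 4. Among called genes the highest differences belonged to SKIC3, YES1, LATS1, BLOC1S6 and RAB7A. RAB7A, a GTPase of late endosomes, had 9.73, 9.66, 9.58 and 9.4 in cytosolic vehicle and 9.72, 7.61, 9.13 and 7.23 after PP242, a change of -1.17 ± 0.30, against 0.18 in polysome RNA. SKIC3, of the complex that feeds mRNA to the exosome, had 8.1, 6.5, 8.76 and 6.27 after PP242 against 8.32 to 8.65. In each of the 5 genes PP242 arrays 2 and 4 are the lowest. Their cytosolic calls were lost without replicate 2, with adjusted p-values of 0.211 for SKIC3, 0.136 for YES1, 0.106 for LATS1, 0.0879 for BLOC1S6 and 0.139 for RAB7A. Without replicate 4 those of SKIC3 (0.137), YES1 (0.0695) and RAB7A (0.0743) were lost. Other probe sets of SKIC3 changed by 0.02 to 0.06 and of RAB7A by -0.20 to 0.12.

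The lowest differences belonged to CDK7, CLDN6, HCRP1, PERM1 and KIFC1. CDK7, the kinase of transcription factor TFIIH, rose in the cytosol from 9.21, 9.28, 8.94 and 8.97 to 9.82, 10.29, 9.41 and 10.06 (0.80 ± 0.14) and changed by -0.03 on polysomes, with a difference of -0.82 ± 0.16 in the subtracted fit (adjusted p = 0.00752). KIFC1, a kinesin that focuses spindle poles, fell by 0.94 ± 0.13 in the cytosol, from 8.46 to 8.73 down to 7.38 to 7.95, against a polysome change of -1.63. The calls of CLDN6, HCRP1 and PERM1 were lost without replicate 2 (adjusted p = 0.106, 0.0572 and 0.178). Those of HCRP1 and PERM1 were also lost without replicate 1 (0.0794 and 0.117), and those of CLDN6 and PERM1 without replicate 4 (0.0758 and 0.124).

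Few members passed in several other lists, or members passed in both directions. Of 22 apoptosis genes 3 rose and 2 fell. Of 36 interferon response genes 9 rose and 2 fell, and groups did not overlap for 1. With no replicate block 1 rose and 0 fell, and in numbers 1 and 3 alone 2 rose. OASL, an interferon-induced gene, had 7.31, 7.34, 5.73 and 5.64 in vehicle and 8.4, 8.73, 6.63 and 6.88 after PP242. Every pair of OASL rose by 0.9 or more while the groups overlap, and its call was lost with no replicate block (limma adjusted p = 0.199). Of 24 hypoxia genes 6 rose and 4 fell, led by adrenomedullin ADM (6.61, 6.65, 8.04 and 8.05 against 8.41, 8.63, 9.22 and 9.68). Of 12 genes of the MYC network 3 rose and 1 fell, and of 6 measured alpha-arrestins, TXNIP included, 3 rose and 0 fell, with a median of 0.38 and pair medians of 0.23, 0.51, 0.47 and 0.56. The growth factor responsive CCN2, a YAP and TEAD target, rose from 3.42 to 4.47 up to 5.29 to 6.39, and in its list 3 of 21 measured genes rose and 1, LATS1, fell, a share of rises near the 9.81% of all genes.

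Of 7 measured mitochondrially encoded RNAs 0 rose, 1 fell and 6 did not pass in the cytosol, and their pair medians were 0.07, -0.37, 0.12 and -0.73. The RNA that fell was ND6 (-0.61), and its call was lost without replicate 2 (limma adjusted p = 0.0798) or 4 (0.0926). In numbers 1 and 3 alone 0 of the 7 fell. ATP6 had 14.27, 14.18, 14.26 and 14.3 in vehicle and 14.31, 13.55, 14.45 and 13.23 after PP242 (adjusted p = 0.164). COX3 had 10.35, 9.8, 9.73 and 9.73 against 10.09, 9.02, 9.9 and 7.84. In both genes arrays 2 and 4 were the lowest. In polysome RNA the pair medians of these RNAs were 0.76, 0.62, 0.97 and 0.99. The part that this shift between arrays has in the other results was not tested.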

How the data were processed

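RNA was hybridised to Affymetrix arrays, and the deposited table holds log2 values normalised by RMA, per the submitters' processing notes (version not given in the sources used here). Of 54613 probe sets, 41091 have 1 gene, 1801 several and 11721 none in the platform annotation, which can be old. Genes were represented by the single-gene probe set with the highest mean over 16 arrays. Changes were tested with limma (version 3.58.1, R 4.3.3, statmod 1.5.0), by lmFit and eBayes with trend, two-sided, with the replicate number as a block. The fit was first checked on simulated data with equal spread in both groups. That check does not cover the wider spread of the PP242 arrays. The pairing rests on the rule that defines the comparison; the correlation of same-numbered deviations, given with the results, was over 0.1 for all 4 numbers. The number of arrays limits the precision.

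Genes were named by rule: the 10 largest rises and falls (called, groups apart, 4 pairs alike, mean of at least 6 in the higher group), up to 4 members per list with the smallest p, the 5 largest SDs among PP242 arrays, and the 5 highest and 5 lowest differences from polysome RNA among called genes. Named outside it, after their values were seen, were POLD4, GLA, PMF1, KIF22, CKAP5, ORC3, ORC4, ORC5, RECQL4, MCM6, POLA2, KIF23, CTSA, CTSD, GALNS and LAMP1. Members and lists were chosen with earlier results of these data known. Promoters came from RefSeq. The alternatives covered the block, array weights, eBayes options, normalisation, probe-set choice, a level filter and left-out replicates.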

Additional observations from a re-analysis of the deposited data

Results flagged for a closer look

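In the group of 4 cytosolic vehicle arrays, array 1 stood apart from the others for PCNA, at 11.44 against 11.31 to 11.32, a gap that is wide only beside the very small spread of the others. Among the 4 cytosolic PP242 arrays, array 3 stood apart for CENPK, at 6.61 against 5.04 to 5.29. Over all genes, the median absolute deviation from the group mean was 0.095 in vehicle array 1 and 0.082 to 0.083 in the other vehicle arrays. Chance sets a sample apart in this way in about 1 in 20 groups.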

How the results depend on the processing

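The count of 3707 genes that passed (1940 higher, 1767 lower) depended on the pairing and on single replicates. With no replicate block 2069 genes passed (965 higher, 1104 lower). Leaving out 1 replicate gave 1720 to 4309 genes (764 to 2385 higher, 956 to 1924 lower), lowest without replicate 2. Numbers 1 and 2 alone gave 1664 (738 higher, 926 lower), numbers 3 and 4 alone 371 (138 and 233), and numbers 1 and 3 alone, chosen after seeing the data, 968 (379 and 589); these fits rest on fewer arrays. Leaving out PP242 arrays 2 and 4 with no block gave 1765 (618 and 1147), and asking for at least 1.5-fold 1975 (853 and 1122). The other 9 alternatives gave 3253 to 4929 genes. Of the polysome differences, 0 in the fit over 16 arrays, 2 passed with probe sets averaged. With arrays of the same number and treatment first subtracted, and with the block, 722 passed. The cause was not tested. Of 62 list medians 1 reversed, that of the Krueppel-like factors, at -0.0025 in numbers 3 and 4 alone, and 13 moved with probe sets averaged, 12 among genes above the median level and 8 in numbers 1 and 3 alone. Of 253 named genes that passed, 0 reversed; 31 lost their call with no block, 34 without replicate 2, and 149 in numbers 3 and 4 alone. Signal over background could not be judged from the deposited values.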
